A study of Oryza sativa with 10 samples.

Results

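A total of 118 rice genes stayed at about the same RNA level after 8 h of light and were lower after 24 h. They were selected on the measured values themselves, from FPKM values, which are read densities corrected for gene length and library size. Of 2282 genes on the first part of chromosome 1 with complete values, 1092 had a mean of 1 FPKM or more over the 10 libraries and were tested. A gene was chosen when log2(mean FPKM + 1) differed by less than 0.5 between 8 h and 0 h, and was lower by 0.5 or more at 24 h than at 8 h. The 118 genes were 10.8% of those tested.

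Each library was made from poly(A) RNA of whole rice seedlings of the indica cultivar YD6 that had germinated in the dark for 3 d, and each of the 5 conditions had 2 biological replicates. Seedlings of 2 conditions were sprayed with 100 µM ABA or 100 µM IAA for 30 min and collected at 24 h of light. The other conditions received no hormone and were collected in the dark (0 h) and after 8 h and 24 h of light. Light exposure and seedling age grew together in the light course, so they cannot be told apart. The hormones were dissolved in DMSO, and the methods describe a further group of seedlings sprayed with DMSO alone. The labels do not say whether the 24 h libraries came from that group, so in a comparison with 24 h the hormone and the spray cannot be told apart. Spray and solvent were shared by the ABA and IAA seedlings.

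A seedling that germinates in the dark elongates on its seed reserves and keeps etioplasts in place of chloroplasts. Photoreceptors such as the phytochromes and cryptochromes turn this growth into photomorphogenesis when light arrives, and the seedling slows its elongation, makes chlorophyll and builds chloroplasts. IAA is the main natural auxin, a hormone of cell elongation and division that acts through the release of transcription factors from their repressors and changes its early target genes within minutes. ABA is the hormone of seed dormancy and of the response to water deficit, and acts through a kinase cascade that its receptors set free. The deposited table gave an identifier, a strand and a position for each gene but no product name. None of the identifiers matched the available gene annotation, which left 0 of 118 members with a name, so the genes are described here by identifier, position, level and response.

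The median level of the tested genes differed between conditions, although FPKM is corrected for library size. The median log2(FPKM + 1) of the 1092 tested genes lay between 3.15 and 3.17 in the ABA libraries, at 3.40 in both IAA libraries, between 3.47 and 3.51 at 0 h, between 3.36 and 3.38 at 8 h and between 3.19 and 3.25 at 24 h. A median-of-ratios scaling, which sets the typical gene equal in every library, gave factors between 0.838 and 1.24. The 24 h replicates were the farthest apart, with a distance of 7.82 over the tested genes on the log2(FPKM + 1) scale, against 4.86 to 5.37 in the other conditions. In the bulk tissue used here, fewer cells of a type and less RNA per cell cannot be told apart.

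The levels that chose the members are given as a description. The difference between 24 h and 8 h in log2(mean FPKM + 1) ranged over the members from -1.45 to -0.50 with a median of -0.66, against a median of -0.17 over all tested genes. The difference between 8 h and 0 h ranged from -0.46 to 0.49 with a median of -0.06, against -0.18 over all tested genes. It was above 0 in 52 members and below 0 in 66, so the set held genes that were somewhat higher and genes that were somewhat lower after the first 8 h. As a plain ratio of mean FPKM, 8 h over 24 h, the members spanned 1.43 to 4.58 with a median of 1.69, and 22 of them reached 2 or more. Most members therefore lay close to the limit of the rule, and 12 were lower at 24 h by 1 or more on the log2 scale. Both 24 h libraries lay below both 8 h libraries in 118 of 118 members, and in 54.9% of all tested genes, a separation that the rule itself largely fixed.

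The 4 members with the largest difference between 24 h and 8 h were LOC_Os01g32380, LOC_Os01g03950, LOC_Os01g05064 and LOC_Os01g32460. LOC_Os01g32380 is a gene of 586 bases on the plus strand of chromosome 1, from 17767880 to 17768465 in the coordinates of the deposited table. It had 3.36 and 2.40 FPKM in ABA, 8.51 and 7.74 FPKM in IAA, 6.14 and 8.96 FPKM at 0 h, 7.36 and 5.90 FPKM at 8 h, and 2.81 and 0.777 FPKM at 24 h. The 0 h, 8 h and IAA libraries all lay above the ABA and 24 h libraries, and the 24 h replicates were far apart for a gene of this level. LOC_Os01g32460 is the next tested gene on the same strand, from 17798261 to 17799032, and was more abundant. It had 15.6 and 14.8 FPKM in ABA, 49.7 and 48.1 FPKM in IAA, 25.1 and 26.6 FPKM at 0 h, 34.2 and 36.0 FPKM at 8 h, and 18.2 and 10.6 FPKM at 24 h. The IAA libraries were its highest, above those of 8 h, while ABA lay within the range of the 24 h replicates.

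LOC_Os01g03950, from 1698203 to 1703090 on the plus strand, had 21.1 and 22.4 FPKM in ABA, 18.8 and 18.2 FPKM in IAA, 48.8 and 48.5 FPKM at 0 h, 43.2 and 40.6 FPKM at 8 h, and 16.8 and 16.6 FPKM at 24 h. Its replicates lay close together, and all 3 groups collected at 24 h of light were below 0 h and 8 h. LOC_Os01g05064, from 2377322 to 2377980 on the minus strand, had 8.27 and 7.79 FPKM in ABA, 18.5 and 15.3 FPKM in IAA, 23.8 and 19.5 FPKM at 0 h, 26.4 and 27.6 FPKM at 8 h, and 12.4 and 9.43 FPKM at 24 h. Here ABA was lowest, 24 h next and IAA above both, without overlap between the groups. LOC_Os01g05585 was singled out after its values were seen, as the member listed at 0 FPKM in a library. It was at 0 FPKM in the first 24 h library and at 5.07 FPKM in the second, against 7.25 and 6.77 FPKM at 8 h, so its place among the members rested mainly on 1 library.

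The most abundant members differed less between 24 h and 8 h. LOC_Os01g04050, from 1760140 to 1761135 on the minus strand, averaged 280 FPKM over the 10 libraries. It had 212 and 223 FPKM in ABA, 292 and 271 FPKM in IAA, 380 and 345 FPKM at 0 h, 326 and 315 FPKM at 8 h, and 207 and 227 FPKM at 24 h. The ABA values fell within the range of the 24 h replicates and the IAA values lay between 24 h and 8 h. LOC_Os01g22490, from 12645515 to 12646409 on the minus strand, averaged 243 FPKM, with ABA lowest, then 24 h, IAA and 8 h, and with 0 h overlapping 8 h. It had 178 and 179 FPKM in ABA, 257 and 241 FPKM in IAA, 343 and 284 FPKM at 0 h, 288 and 276 FPKM at 8 h, and 187 and 199 FPKM at 24 h. LOC_Os01g10820, from 5770150 to 5772034 on the plus strand, averaged 164 FPKM. It had 111 and 117 FPKM in ABA, 172 and 163 FPKM in IAA, 215 and 223 FPKM at 0 h, 195 and 188 FPKM at 8 h, and 130 and 124 FPKM at 24 h. In LOC_Os01g10820 the groups did not overlap, with ABA lowest, then 24 h, IAA, 8 h and 0 h. LOC_Os01g24710, at 169 FPKM on average, kept another order and is described with the ABA response.

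The members covered a wide range of levels. Their mean FPKM had a median of 14.0 with quartiles of 7.53 and 31.5, against a median of 9.58 over all tested genes. There were 21 of 118 members under 5 FPKM, against 350 of the 1092 tested genes. At 100 FPKM or more there were 9 members, against 45 tested genes. A fixed limit on log2(FPKM + 1) asks a larger ratio of a gene with few reads. The genes themselves spanned a median of 2762 bases from start to end, against 3592 bases over all tested genes, and 54.2% lay on the minus strand, against 50.5%.

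Genes on both sides of each limit had similar values. LOC_Os01g11070 and LOC_Os01g06010 were the last members on the limit for the later difference, at -0.50 and -0.51, and LOC_Os01g26020 and LOC_Os01g08600 fell just outside it at -0.50 each. The limit for the earlier difference kept LOC_Os01g21120 at 0.49 and LOC_Os01g05060 at 0.43, and left out LOC_Os01g17320 at 0.51 and LOC_Os01g17470 at 0.52. At its lower end LOC_Os01g16640 at -0.46 and LOC_Os01g02870 at -0.46 were inside, and LOC_Os01g13190 at -0.51 and LOC_Os01g11730 at -0.51 were outside. The limit on the mean kept LOC_Os01g01019 at 1.25 FPKM and LOC_Os01g13600 at 1.27 FPKM, and left out LOC_Os01g01115 and LOC_Os01g37500 at 0.98 FPKM each. LOC_Os01g11730 was lower at 24 h than at 8 h by as much as the leading members, at -1.27, and was left out because it was already lower at 8 h than at 0 h.

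Membership depended on the libraries and on the scaling. With each of the 6 light-course libraries left out in turn, 76 of the 118 members met the rule every time. The second 24 h library was lower than the first in 86 members, or 72.9%, against 56.4% of all tested genes. Without the second 24 h library 122 genes met the rule, 99 of them members. Without the first 24 h library 148 genes did, 107 of them members. This dependence was not tested further. Once the libraries were scaled by the median of ratios, the difference between 24 h and 8 h was still below 0 in 118 of 118 members. The value nearest to 0 was -0.32, but the difference reached the limit in 54 of them and 45 met the whole rule. The scaled difference between 8 h and 0 h had a median of 0.15 in the members and 0.02 in all tested genes. It was 0.5 or more in 10 members, so the earlier step depended on the scaling too.

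Across the 5 conditions the members stood high in the dark and at 8 h, low at 24 h and in ABA, and between these levels in IAA. Their median log2(FPKM + 1) was 3.50 and 3.47 in the ABA libraries, 3.95 and 3.94 in the IAA libraries, 4.29 and 4.19 at 0 h, 4.23 and 4.21 at 8 h, and 3.57 and 3.49 at 24 h. The ABA libraries thus stood at the level of 24 h, and the IAA libraries stood between 24 h and 8 h without reaching 8 h.

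**Figure D1:**
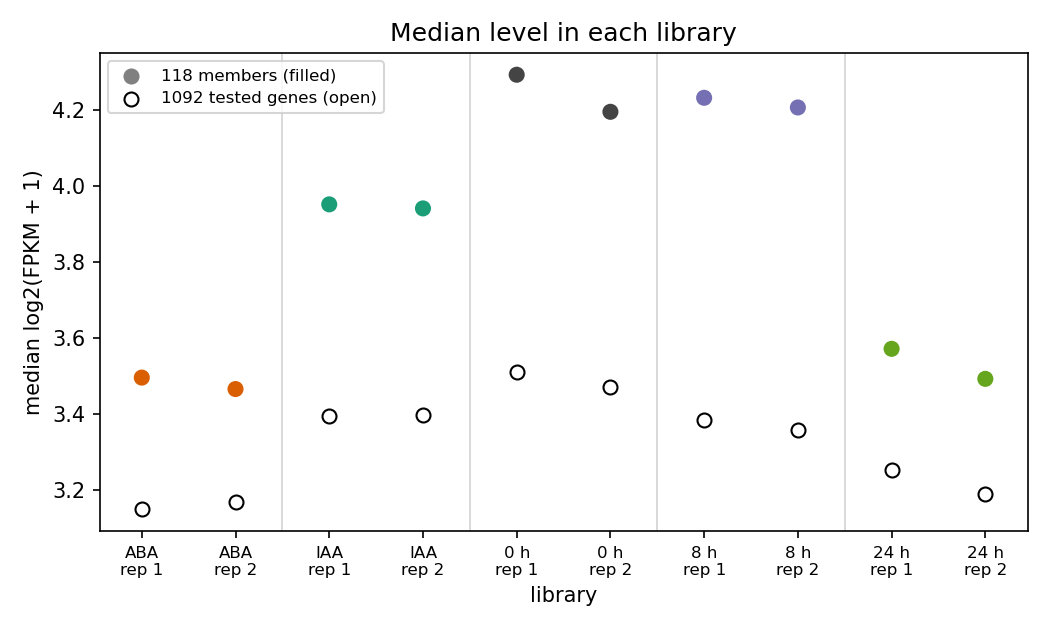
Median log2(FPKM + 1) in each of the 10 libraries (x axis, by condition and replicate) for the 118 members (filled points) and for all 1092 tested genes (open points). The members' medians are 3.50 and 3.47 in ABA, 3.95 and 3.94 in IAA, and 3.57 and 3.49 at 24 h, while those of the tested genes stay between 3.15 and 3.51 in all libraries.

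Set against 8 h, which the rule also used, the members' median difference was -0.74 in ABA and -0.29 in IAA on the log2 scale, against -0.30 in ABA and -0.01 in IAA over all tested genes. Both ABA libraries lay below both 8 h libraries in 113 members, or 95.8%, against 65.0% of all tested genes. The exceptions were LOC_Os01g03310, LOC_Os01g10180, LOC_Os01g09770, LOC_Os01g09430 and LOC_Os01g14880, all named after their values were seen. Of these, LOC_Os01g03310, LOC_Os01g09430 and LOC_Os01g14880 had an ABA mean at or above the 8 h mean. Both IAA libraries lay below both 8 h libraries in 81 members, or 68.6%, against 40.7% of all tested genes. In 21 members, or 17.8%, both IAA libraries lay above both 8 h libraries, against 38.5% of all tested genes. All these counts describe genes that were chosen for a high 8 h level relative to 24 h.

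**Figure D2:**
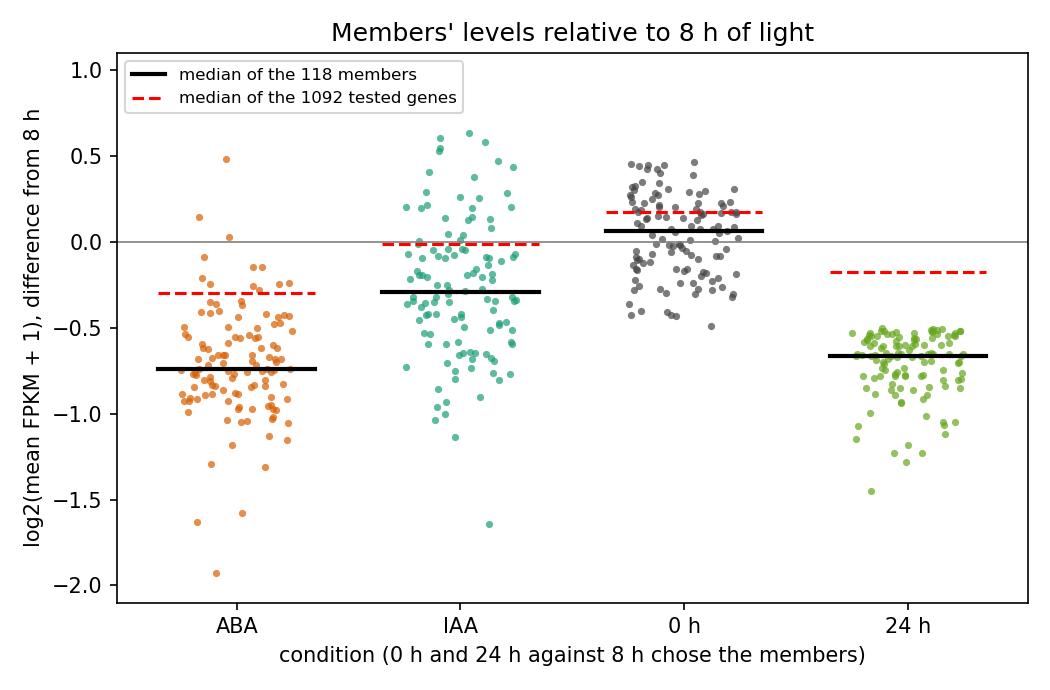
Difference in log2(mean FPKM + 1) from 8 h (y axis) for each of the 118 members (points) in ABA, IAA, 0 h and 24 h, with the median of the members (black line) and of all 1092 tested genes (dashed line). The members' medians are -0.74 in ABA and -0.29 in IAA, and the 24 h points end at -0.50 because the rule ends there.

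The comparison of IAA with ABA asked how the members differed between the hormones. The difference itself was taken between the ABA and IAA libraries alone, which did not enter the rule's light-course differences. They did enter the limit on the mean, and the spread in the test came from all 10 libraries, those of the rule included. Members were mostly higher in IAA. In a limma fit on log2(FPKM + 1) over all 10 libraries, with Benjamini-Hochberg adjustment over all 1092 tested genes, 71 members, or 60.2%, rose at an adjusted p under 0.01, against 36.2% of all tested genes. The same test called 6 members lower in IAA, or 5.08%, against 6.04%. With a 2-fold change also required, 15 members, or 12.7%, were higher against 4.85% of tested genes, and 1 member, or 0.847%, was lower against 0.916%. The median difference, IAA minus ABA, was 0.41 in the members and 0.21 in all tested genes, and it was above 0 in 100 members, or 84.7%, and in 74.7% of tested genes.

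Much of this difference was shared by the tested genes at large. Median-of-ratios scaling moved the median of all tested genes to -0.04 and that of the members to 0.14. After scaling, 34 members, or 28.8%, rose in IAA against ABA, compared with 13.8% of tested genes, and 9 members, or 7.63%, fell, compared with 17.3%. At 2-fold or more, 6 members, or 5.08%, rose against 2.47% of tested genes, and 1 member, or 0.847%, fell against 1.65%. The share of members called higher was above that of the tested genes with and without scaling, a description of the list for which no test was made. The members were also more abundant, at a median of 14.0 FPKM against 9.58, and this scale understates changes of genes with low FPKM. How far the level of the genes bears on these shares was not tested.

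The 4 largest positive differences, IAA minus ABA, were in LOC_Os01g13600, LOC_Os01g32460, LOC_Os01g18744 and LOC_Os01g15320. LOC_Os01g13600, from 7605362 to 7606545 on the minus strand, was a gene of low level. It had 3.01 and 3.0 FPKM in IAA and 0.273 and 0.0808 FPKM in ABA, with 1.66 and 0.832 FPKM at 0 h, 1.77 and 1.39 FPKM at 8 h, and 0.283 and 0.407 FPKM at 24 h. Both IAA libraries lay above every other library, and the difference from ABA was 1.77 on the log2 scale. Its mean over the 8 libraries other than IAA was 0.837 FPKM, so it passed the limit on the mean only through IAA and had to be high there. No p is given for it, although the counts above include it, and it was the 1 member of which this held for any condition. LOC_Os01g32460, whose values are given above, was higher in IAA than in ABA by 1.63 ± 0.16 (SE, n = 2 each, limma adjusted p = 6.02e-06).

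LOC_Os01g18744, from 10561328 to 10565325 on the minus strand, had 36.7 and 31.6 FPKM in IAA and 11.8 and 12.8 FPKM in ABA, with 51.2 and 53.1 FPKM at 0 h, 39.8 and 37.5 FPKM at 8 h, and 19.6 and 16.2 FPKM at 24 h. The IAA values came near those of 8 h while ABA fell below 24 h, a difference between the hormones of 1.40 ± 0.09 (SE, limma adjusted p = 2.97e-07). LOC_Os01g15320, from 8577199 to 8577934 on the minus strand, had 20.2 and 18.7 FPKM in IAA and 7.39 and 6.91 FPKM in ABA, with 13.0 and 16.0 FPKM at 0 h, 12.7 and 13.7 FPKM at 8 h, and 8.03 and 7.44 FPKM at 24 h. Its IAA libraries exceeded every other library, and the difference from ABA was 1.33 ± 0.10 (SE, limma adjusted p = 6.38e-07). The calls of LOC_Os01g32460, LOC_Os01g18744 and LOC_Os01g15320 held under every alternative that was run. That of LOC_Os01g32380, at 1.24 ± 0.28 (SE, limma adjusted p = 0.00231), was lost after scaling (adjusted p = 0.0120) and in 4 further alternatives, 3 of which left out 1 library.

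LOC_Os01g03310 was the member that fell in IAA against ABA by 2-fold or more, and it had the largest difference of all members. This gene of 911 bases lies from 1338229 to 1339139 on the minus strand. It had 10.7 and 10.6 FPKM in IAA and 49.5 and 50.3 FPKM in ABA, with 47.7 and 39.7 FPKM at 0 h, 35.0 and 35.9 FPKM at 8 h, and 20.2 and 17.2 FPKM at 24 h. IAA was below and ABA was above the 24 h libraries, and the ABA values exceeded even those in the dark. The log2 difference, IAA minus ABA, was -2.13 ± 0.09 (SE, limma adjusted p = 1.55e-08), and -2.42 after scaling.

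The other members that fell in IAA against ABA did so by less than 2-fold. LOC_Os01g18240 had 14.4 and 13.6 FPKM in IAA and 20.0 and 20.9 FPKM in ABA, a difference of -0.52 ± 0.08 (SE, limma adjusted p = 0.000111). LOC_Os01g02010 had 22.2 and 20.4 FPKM in IAA and 29.1 and 32.1 FPKM in ABA, and LOC_Os01g16120 had 8.70 and 8.87 FPKM in IAA and 12.4 and 12.8 FPKM in ABA. In both the groups were apart without overlap. LOC_Os01g09430 and LOC_Os01g03950 differed by -0.24 and -0.22, at adjusted p of 0.00975 and 0.00863 in limma. These 5 genes were named after their values were seen. Among the 41 members that did not pass the test in either direction, the differences ran on both sides of 0.

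**Figure D3:**
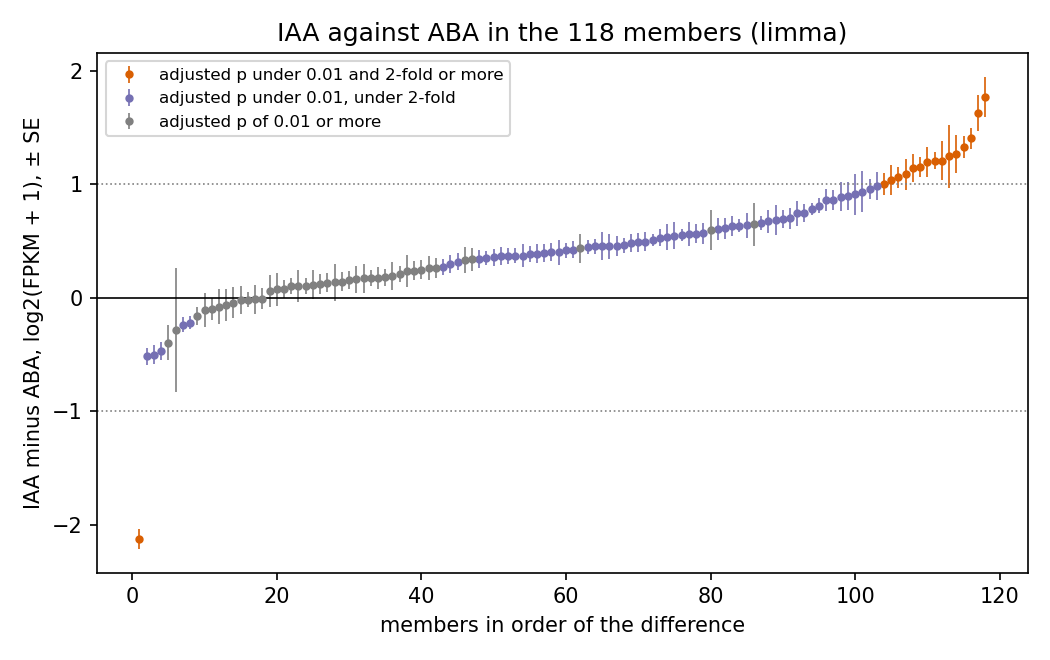
Difference in log2(FPKM + 1), IAA minus ABA, with its standard error from limma (y axis) for the 118 members in order of size (x axis), coloured by the test result; dotted lines mark 2-fold. There are 71 members past the test above 0 and 6 below it, and LOC_Os01g03310 stands alone at -2.13.

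The comparisons of IAA and of ABA with 24 h share the 24 h libraries with each other and with the rule. The rule picked genes with low 24 h values, which favours positive differences from 24 h in both, so the counts and p-values that follow describe the members and are no independent evidence of a rise. In limma, 68 members, or 57.6%, were higher in IAA than at 24 h at an adjusted p under 0.01, against 28.3% of all tested genes, and 3 members, or 2.54%, were lower, against 7.6%. With 2-fold required as well, 14 members, or 11.9%, were higher, against 4.67% of tested genes. At 2-fold, 0 members were lower, against 0.0916% of tested genes. The median difference was 0.44 in the members and 0.13 in the tested genes, and after scaling 0.28 in the members and -0.01 in the tested genes. After scaling 47 members, or 39.8%, were higher, compared with 17.4% of tested genes, and 8 members, or 6.78%, were higher by 2-fold or more, compared with 3.30%.

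The 4 largest positive differences, IAA minus 24 h, were in LOC_Os01g32380, LOC_Os01g32460, LOC_Os01g10880 and LOC_Os01g13600. The first differed by 1.81 ± 0.28 (SE, limma adjusted p = 0.000189) and LOC_Os01g32460 by 1.75 ± 0.16 (SE, limma adjusted p = 3.83e-06). Both were also among the 4 members with the largest difference between 24 h and 8 h. Because the rule picked low 24 h values, the p-values of this paragraph are no independent evidence of a rise. LOC_Os01g10880 is a gene of 296 bases, from 5808045 to 5808340 on the plus strand. It had 24.8 and 33.8 FPKM in IAA and 16.1 and 13.4 FPKM in ABA, with 24.1 and 28.1 FPKM at 0 h, 17.6 and 20.2 FPKM at 8 h, and 10.9 and 6.84 FPKM at 24 h. The replicates of IAA and of 24 h were both wide apart but did not overlap, and the difference was 1.63 ± 0.18 (SE, limma adjusted p = 1.71e-05). LOC_Os01g13600 differed by 1.57, which is given without a p for the reason stated above.

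The remaining 10 members called at 2-fold in this comparison were LOC_Os01g21120, LOC_Os01g08380, LOC_Os01g01650, LOC_Os01g15320, LOC_Os01g19800, LOC_Os01g16550, LOC_Os01g15770, LOC_Os01g02139, LOC_Os01g12090 and LOC_Os01g16640. LOC_Os01g21120 had 8.84 and 9.60 FPKM in IAA and 3.06 and 1.94 FPKM at 24 h, and LOC_Os01g08380 had 6.93 and 5.22 FPKM in IAA and 2.21 and 1.26 FPKM at 24 h. Leaving out the second 24 h library ended the call of LOC_Os01g12090, at 0.84, and of LOC_Os01g16640, at 0.75, as both then fell under 2-fold. Without the first IAA library these were at 0.99 and 0.96, and LOC_Os01g02139 at 0.99. After scaling LOC_Os01g02139, LOC_Os01g12090, LOC_Os01g15770, LOC_Os01g16550, LOC_Os01g16640 and LOC_Os01g19800 were under 2-fold, between 0.86 and just under 1, so 6 of these 10 calls rested on the values as deposited. Lower in IAA than at 24 h were LOC_Os01g03310 at -0.75, LOC_Os01g18240 at -0.52 and LOC_Os01g24710 at -0.41, each past the test and under 2-fold. All 3 also stayed lower after scaling, at -0.91, -0.68 and -0.58.

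In ABA the members lay close to their 24 h level. In limma, 12 members, or 10.2%, were higher in ABA than at 24 h at an adjusted p under 0.01, against 7.51% of all tested genes, and 11 members, or 9.32%, were lower, against 12.2%. After scaling 20 members, or 16.9%, were higher, compared with 12.7% of tested genes, and 4 members, or 3.39%, were lower, compared with 3.85%. With 2-fold required, 1 member was higher, against 1.65% of tested genes, and 1 was lower, against 0.366%. The median difference, ABA minus 24 h, was -0.02 in the members and -0.10 in the tested genes, and after scaling 0.11 in the members and 0.01 in the tested genes. Counts with a 24 h library left out are not given, since 1 library then remains in that group.

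The called genes were LOC_Os01g03310, which was higher in ABA, and LOC_Os01g24710, which was lower. LOC_Os01g03310, with the values given above, differed by 1.38 ± 0.09 (SE, limma adjusted p = 3.87e-07), and its ABA and 24 h libraries were far apart. The rule favoured low 24 h values, so this p is no independent evidence of a rise. LOC_Os01g24710 lies from 13903153 to 13904729 on the minus strand and is among the most abundant members. It had 57.9 and 60.8 FPKM in ABA and 102 and 132 FPKM in IAA, with 293 and 281 FPKM at 0 h, 231 and 226 FPKM at 8 h, and 151 and 157 FPKM at 24 h. The light-course levels were lower at each later time, both hormones lay below 24 h, and ABA lay below IAA, without overlap between any of the 5 groups. ABA minus 24 h was -1.36 ± 0.09 (SE, limma adjusted p = 4.57e-07).

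Other members past the test in ABA changed by less than 2-fold. LOC_Os01g09430 had 34.2 and 33.9 FPKM in ABA and 21.2 and 19.4 FPKM at 24 h, a difference of 0.72 ± 0.07 (SE, limma adjusted p = 8.18e-06). Its ABA libraries lay above those of 8 h, at 30.5 and 30.8 FPKM. As the rule favoured low 24 h values, passing the test upward is no independent evidence of a rise here. LOC_Os01g14720 had 10.7 and 10.3 FPKM in ABA and 7.45 and 4.76 FPKM at 24 h. Its IAA values were close to those in ABA, at 10.6 and 9.70 FPKM, with IAA minus ABA at -0.04 (limma adjusted p = 0.796). LOC_Os01g02010 had 29.1 and 32.1 FPKM in ABA and 20.5 and 17.6 FPKM at 24 h, so ABA lay above 24 h in LOC_Os01g14720 and in LOC_Os01g02010. On the other side LOC_Os01g12440 had 1.38 and 1.34 FPKM in ABA and 2.88 and 2.45 FPKM at 24 h, and fell by 0.63 on the log2 scale. LOC_Os01g18744 fell by 0.51. These genes were picked after their values were seen, as the next in size.

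**Figure D4:**
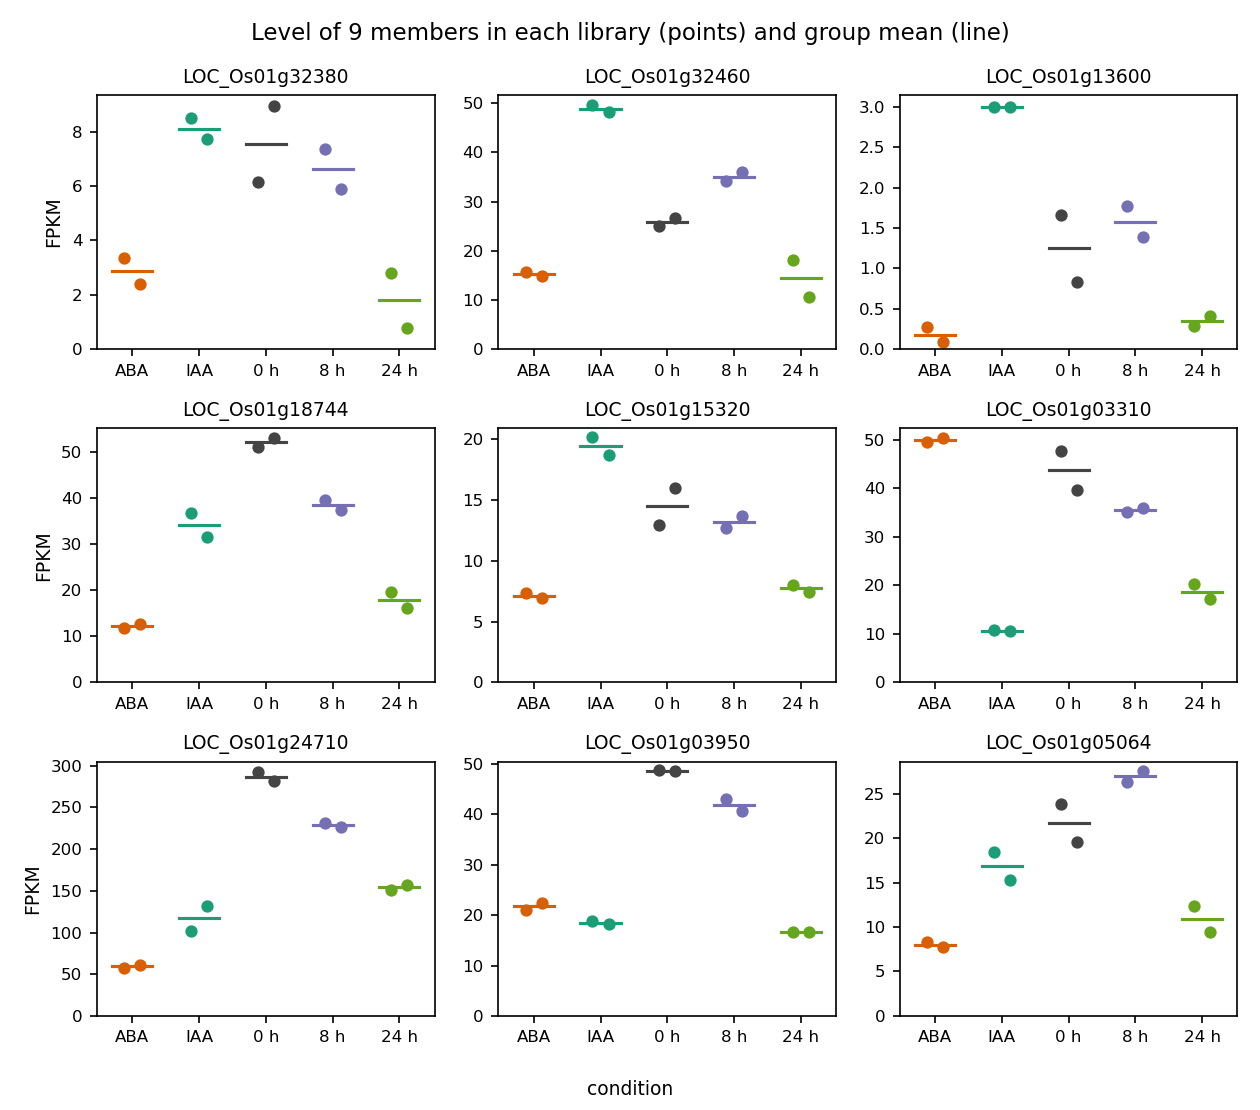
FPKM (y axes, each from 0) in every library (points, 2 for each condition) and the group mean (lines) of 9 members in ABA, IAA, 0 h, 8 h and 24 h. IAA is above ABA in LOC_Os01g32380, LOC_Os01g32460, LOC_Os01g13600, LOC_Os01g18744, LOC_Os01g15320, LOC_Os01g24710 and LOC_Os01g05064, whereas LOC_Os01g03310 has 10.7 and 10.6 FPKM in IAA and 49.5 and 50.3 FPKM in ABA.

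Some members were neighbours on the chromosome. When the 1092 tested genes were put in order, 27 members stood in 13 runs of 2 or more members, and in 5 pairs no other gene of the table lay between them. A member stood next to 22.9% of the members and to 19.0% of the other 974 tested genes, so these runs are given as positions and not as a trait of the members. The longest run held 3 genes on the minus strand, LOC_Os01g05010, LOC_Os01g05060 and LOC_Os01g05064, over 20.2 kb from 2357769 to 2377980. LOC_Os01g05060 had 69.4 and 65.7 FPKM in ABA, 87.3 and 89.4 FPKM in IAA, 84.7 and 87.6 FPKM at 0 h, 118 and 115 FPKM at 8 h, and 67.8 and 56.9 FPKM at 24 h. LOC_Os01g05010 had 8.80 and 9.28 FPKM in ABA, 10.8 and 11.3 FPKM in IAA, 22.0 and 18.5 FPKM at 0 h, 19.9 and 19.1 FPKM at 8 h, and 13.0 and 10.3 FPKM at 24 h. In IAA, LOC_Os01g05060 was above 24 h by 0.50 (limma adjusted p = 0.000128) and LOC_Os01g05010 did not pass the test, at -0.07 (limma adjusted p = 0.621). The rule used the 24 h libraries, so these p-values are no independent evidence of a rise. The difference between both genes was not tested.

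LOC_Os01g05970 and LOC_Os01g06010 formed another run, and LOC_Os01g05900 lay near it. LOC_Os01g06010 had 55.1 and 51.6 FPKM in ABA, 104 and 91.2 FPKM in IAA, 80.7 and 82.5 FPKM at 0 h, 82.7 and 86.9 FPKM at 8 h, and 64.9 and 53.9 FPKM at 24 h. LOC_Os01g05970 had 44.9 and 42.3 FPKM in ABA, 84.8 and 79.2 FPKM in IAA, 84.6 and 72.6 FPKM at 0 h, 74.5 and 74.4 FPKM at 8 h, and 57.0 and 40.1 FPKM at 24 h. In all 3 genes the IAA libraries were above the ABA libraries, by 1.0 in LOC_Os01g05900, 0.90 in LOC_Os01g05970 and 0.86 in LOC_Os01g06010 on the log2 scale (limma adjusted p = 4.68e-06, 7.98e-05 and 6.13e-06). The reads were counted without regard to strand, and 5 members overlap a gene on the other strand, which was 4.24% of members against 3.39% of tested genes. These were LOC_Os01g02010, LOC_Os01g05900, LOC_Os01g05970, LOC_Os01g22660 and LOC_Os01g06290, and their values are uncertain to that extent. The neighbouring genes were chosen for description after their values were seen.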

How the data were processed

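RNA-seq of 10 libraries was used, with 2 biological replicates in each of 5 conditions, grouped by the sample labels. The authors trimmed the reads, mapped them with Hisat2, counted them without strand and deposited FPKM values, which the methods credit to Cufflinks. The submitters' processing notes also name featureCounts. A supplementary table of the study calls the same values TPM. The genome build of the RNA reads is not given in the sources used here, and coordinates are those of the deposited table. Depth is unknown, since low values showed no common step, so no counting interval is given.

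Of 2283 lines, 1 was incomplete and left out. Genes with a mean of 1 FPKM or more (1092) were tested with limma 3.58.1 in R 4.3.3 on log2(FPKM + 1), a pseudocount of 1, in one fit with an intensity trend. A gene was called at a Benjamini-Hochberg adjusted p under 0.01 and 2-fold or more. Differences on this scale understate changes of genes with low FPKM. The script was tested on simulated data.

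The members and gene lists were chosen with earlier results of these data known. Named genes were the 4 with the largest later difference, the 4 with the highest mean, up to 4 called in each direction of each comparison, and those beside each limit; others are said to be chosen after seeing values. Product-name lists and tissue markers could not be applied, since 0 of 1092 tested identifiers matched the RefSeq table (assembly ASM3414082v1), so the tissue was not checked by markers. Alternatives were another pseudocount, another filter, median-of-ratios scaling, the compared libraries alone, a replicate block, no fold limit, and each library left out.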

Additional observations from a re-analysis of the deposited data

How the results depend on the processing

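Of the counts of members, that chosen by the rule was 51 after median-of-ratios scaling and 12 with a limit of 1 on the later difference, and lay between 117 and 148 with each light-course library left out. A pseudocount of 0.1 gave 160 genes, 117 of them shared. Without the fold limit, limma called 12 members higher in ABA than at 24 h, or 10.2%, against 7.51% of all tested genes. It called 11 lower, or 9.32%, against 12.2%. In IAA against 24 h, 68 were higher, or 57.6%, against 28.3%, and 3 were lower, or 2.54%, against 7.6%. In IAA against ABA, 71 were higher, or 60.2%, against 36.2%, and 6 were lower, or 5.08%, against 6.04%. Scaling reduced the members higher in IAA than at 24 h at 2-fold to 8, or 6.78%, beside 3.30% of tested genes. Those higher in IAA than in ABA were reduced to 6, or 5.08%, beside 2.47%. Counts of called members with single libraries left out are not given, since 1 library then remains in a group. With the replicate number as a block (replicate block), the counts were 1 higher and 1 lower in ABA than at 24 h, 14 and 0 in IAA than at 24 h, and 15 and 1 in IAA than in ABA, the same as without it. The shares of all tested genes called with the block were not computed. The numbers showed no strong pairing of the samples: deviations of same-numbered libraries correlated between -0.065 and 0.11 over 10 pairs of groups. Whether same-numbered samples were prepared together cannot be told from this.

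Over the 32 calls of single members and 288 alternatives, 256 held, 32 were lost and 0 reversed. Scaling ended 15 of the lost calls and leaving out the first IAA library ended 8. The tally includes fits that left 1 library in a group, in which holding says little about a call. It includes calls against 24 h, whose libraries the rule used. It also includes LOC_Os01g13600, which passed the limit on the mean only through IAA. For these calls, holding under an alternative is no independent support. With 2 libraries a group and depth unknown, small differences of genes near 1 FPKM could not be resolved.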
